A study of Mus musculus with 16 samples.

Results

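Livers of mice with a single copy of Ncoa5 (Ncoa5+/-) were compared directly with livers of mice with a single copy of Tip30 (Tip30+/-), in 8 of the 16 libraries of the series. The series sequenced liver messenger RNA from female mice aged 5 months, with 4 mice of each of 4 genotypes and 1 library from each mouse. Wild type and the double heterozygote Ncoa5+/-Tip30+/- are the other genotypes, and neither enters the contrast. All mice ate standard rodent diet, and the sources used here give neither the mouse strain nor the extent of each deletion. Values are normalized counts, in which the reads of a gene are scaled by each library's size factor. Of 30199 genes in the table, 15164 averaged 10 normalized counts or more over the 8 livers and were tested. The gene just inside that limit had a mean of 10.005 and the gene just outside it 9.99. Replicates are separate mice. The limma p values rest on the spread between mice within each genotype, pooled over all 16 libraries, wild type and double heterozygotes included.

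Ncoa5 encodes a coregulator that binds nuclear receptors, among them the estrogen receptor, and Tip30, known by the gene symbol Htatip2, encodes a protein of the dehydrogenase family with tumour suppressor properties. Liver RNA comes mainly from hepatocytes, with smaller parts from Kupffer cells, endothelium, bile duct cells and lymphocytes. The transcription factor p53 drives genes of cell cycle arrest and death, and interferons drive genes of antiviral defence and antigen presentation. The labels call the tissue mainly hepatocyte, and all 10 hepatocyte markers on the list were tested, with summed levels of 2588600 to 3483990 normalized counts in Ncoa5+/- livers and 3160140 to 3761110 in Tip30+/- livers.

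The Tip30 genotype was visible in Htatip2 itself (GRCm38 chr7:49759115-49773975, plus strand). Htatip2 stood at 2910, 2066, 2331 and 2562 normalized counts in Ncoa5+/- mice 1 to 4 and at 685, 710, 986 and 741 in Tip30+/- mice 1 to 4. Every Ncoa5+/- liver lay above every Tip30+/- liver, by 3.17-fold (log2 difference 1.66 ± 0.13 SE, adjusted p = 4.63e-06, limma). Ncoa5 (chr2:165000357-165034867, minus strand) stood at 339, 411, 364 and 408 in Ncoa5+/- mice and at 392, 410, 382 and 450 in Tip30+/- mice. These groups overlapped, with a log2 difference of -0.10 ± 0.10 (95% confidence interval -0.32 to 0.12, adjusted p = 0.644, exact two-sided permutation p = 0.286). The Ncoa5 genotype thus has no check in the reads of Ncoa5 and is taken from the labels.

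A pair of Ncoa5+/- livers stood apart from the rest of the contrast. Zhx2, a repressor of fetal liver genes, stood at 13.5, 238, 207 and 8.77 normalized counts in Ncoa5+/- mice 1 to 4, and Tip30+/- livers ranged from 271 to 432. Mice 1 and 4 are the low ones, and wild-type mice 1 and 2 were low as well, at 19.4 and 26.3. H19, a fetal RNA, was at 1267, 62.1, 5.21 and 2885 in Ncoa5+/- mice and at 2.56 to 8.19 in Tip30+/- mice, so mice 1 and 4 were its highest. Afp, a fetal serum protein gene, followed the same order at 567, 190, 172 and 1501, against 169 to 225 in Tip30+/- livers. Zhx2 itself did not pass the test (log2 -2.71 ± 1.15, adjusted p = 0.245, exact two-sided permutation p = 0.0286, the smallest that 70 arrangements of 8 mice allow in a two-sided test). Most gene groups that had calls are given below with and without these low livers. Those not taken up were NF-kB and adhesion (2 of 16 tested genes higher), complement and coagulation (1 of 22) and liver tumour markers (1 of 12). Over all genes 1.51% were higher. Without the low livers these 3 groups had 0 calls, and the median log2 difference of the tumour markers went from 0.99 to 0.41.

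Between the single heterozygotes 333 genes differed, 2.20% of those tested, at an adjusted p below 0.05 in limma. Of these, 229 genes (1.51% of all tested) were higher in Ncoa5+/- liver and 104 (0.686%) were lower. The higher genes were led by p53 targets, among them Phlda3, Cdkn1a, Eda2r and Tnfrsf10b, and the lower genes by Wfdc2, Hamp2, Slc13a2 and Steap2. Rises were larger than falls: 150 genes were over 2-fold higher and 34 over 2-fold lower, and the median called gene was 2.43-fold higher or 1.72-fold lower. Over all genes the median log2 difference was -0.01. Groups did not overlap for 321 of the 333, and for 1808 of all genes tested (11.9%), 923 higher (6.09%) and 885 lower (5.84%), or 1188 higher and 644 lower under upper-quartile scaling.

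**Figure D1:**
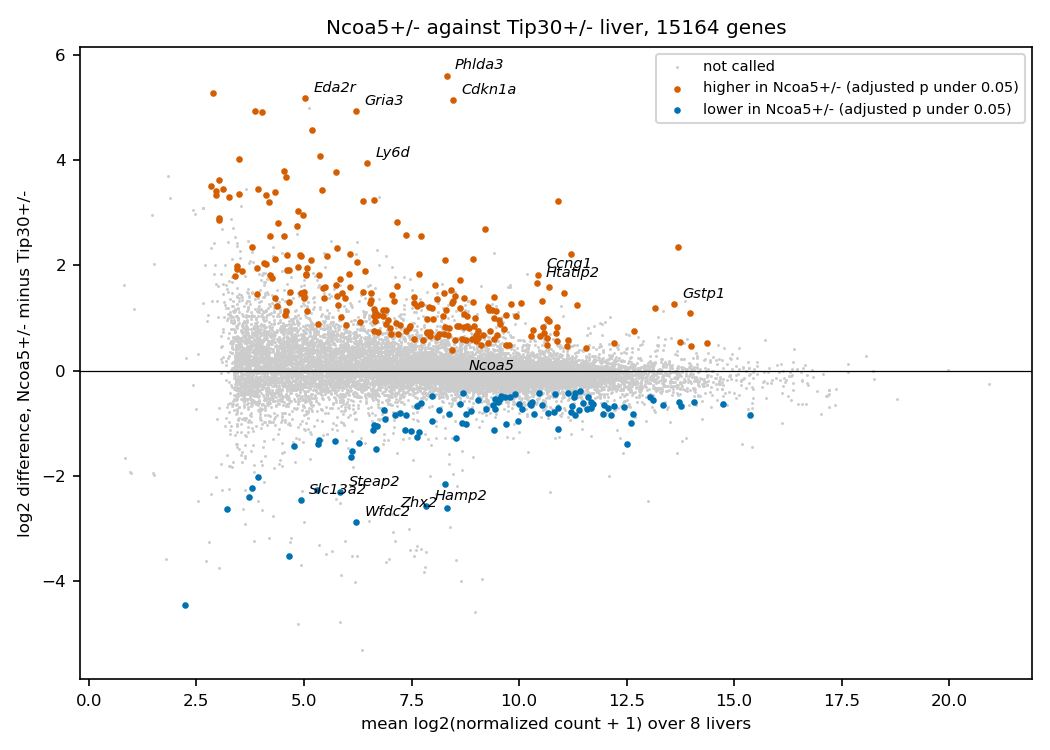
Log2 difference between Ncoa5+/- and Tip30+/- liver (y axis) against mean log2(normalized count + 1) over the 8 livers (x axis), 1 point per tested gene. Orange points are the 229 genes higher and blue points the 104 lower in Ncoa5+/- at an adjusted p below 0.05 (limma), and the orange points reach farther from 0 than the blue.

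Without the 4 livers low in Zhx2 (Ncoa5+/- 1 and 4, wild type 1 and 2), 34 genes were called (0.224%), 31 higher (0.204%) and 3 lower (0.0198%), and 32 of them were among the 333. That fit has 2 Ncoa5+/- mice. A fit of the same size that instead left out Ncoa5+/- 2 and 3 and wild type 3 and 4 called 779 genes (5.14%), 437 higher (2.88%) and 342 lower (2.26%). The median absolute log2 difference of the 333 genes was 1.12 with all livers and 0.954 without the Zhx2-low livers. All 333 kept their sign without the Zhx2-low livers, in mice that also entered the fit that called them. Leaving out Ncoa5+/- 1 alone gave 163 genes and Ncoa5+/- 4 alone 151, while leaving out Ncoa5+/- 3 gave 490. Leaving out Tip30+/- 1, 2 or 3 gave 175, 193 or 206. Library depth also differed, at 26262744 to 28895680 reads in Ncoa5+/- and 30574997 to 35978055 in Tip30+/- libraries, and its part in the result was not tested.

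**Figure D2:**
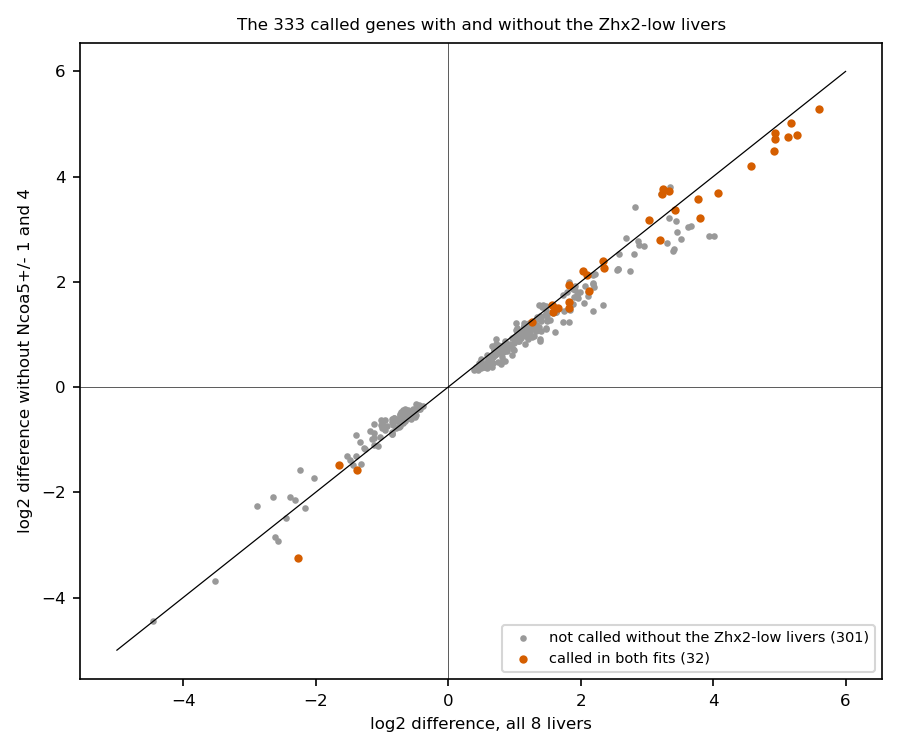
Log2 difference between Ncoa5+/- and Tip30+/- liver for the 333 called genes, with all 8 livers (x axis) and without Ncoa5+/- 1 and 4 (y axis); the line marks equal values. The 32 genes called in both fits are orange and the 301 others grey, and the points lie near the line with smaller differences on the y axis for many.

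The p53 targets of cell cycle arrest and feedback were the list with the highest median among those with 10 or more genes tested. Of 20 such genes 19 were tested, 11 were higher in Ncoa5+/- liver and 0 lower, with a median log2 difference of 1.30. Over all genes 1.51% were higher and 0.686% lower. Of 17 p53 targets of cell death and death receptors 16 were tested, 8 were higher and 1 was lower, with a median of 0.65. Without the Zhx2-low livers 5 and 3 genes of these lists were higher, against 0.204% of all genes, with medians of 0.97 and 0.78. Trp53, which encodes p53 itself, stood at 600 ± 41.4 and 579 ± 54.6 (SD, n = 4 each), a log2 difference of 0.05 ± 0.09 (adjusted p = 0.813, limma).

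Promoters of some of these genes carry a sequence that resembles the p53 response element, a pair of 10-base half-sites with a spacer of 0 or 1 base. The search allowed 2 mismatches with the core C and G of each half-site intact, in RefSeq promoters (GRCm38.p6) from 250 bases before to 50 after the gene start. Of 10619 tested genes with a promoter, 97 (0.913%) held a match, as did 6 of 160 genes higher in Ncoa5+/- and 0 of 79 lower. It was in 4 of 16 arrest genes and 1 of 13 death genes with a promoter. Capitals mark the match in 3 of the higher genes, Cdkn1a (chr17:29090888-29090977, plus strand), Ccng1 (chr11:40755432-40755521, minus strand) and Bax (chr7:45467049-45467139, minus strand), shown because these genes block or end the cell cycle or kill the cell.
Cdkn1a: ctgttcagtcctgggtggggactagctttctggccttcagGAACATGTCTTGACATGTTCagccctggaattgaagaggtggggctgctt
Ccng1: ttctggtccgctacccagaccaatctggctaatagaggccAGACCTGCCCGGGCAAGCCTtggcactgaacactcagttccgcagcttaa
Bax: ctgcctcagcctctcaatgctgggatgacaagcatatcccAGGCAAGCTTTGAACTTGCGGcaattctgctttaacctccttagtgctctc
A match describes the letters in this window only.

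Cdkn1a, the gene of the cyclin-dependent kinase inhibitor p21, stood at 3382, 1434, 1785 and 2244 normalized counts in Ncoa5+/- mice and at 69.1, 70.3, 49.6 and 49.2 in Tip30+/- mice. The lowest Ncoa5+/- liver was far above the highest Tip30+/- liver, and the difference was 35.2-fold (log2 5.14 ± 0.43, adjusted p = 2.06e-05, limma). Ccng1, which encodes cyclin G1, stood at 3773, 1968, 2570 and 2404 against 677, 626, 806 and 860, 3.53-fold higher (adjusted p = 0.000114). Mdm2, the ubiquitin ligase that restrains p53, stood at 1643, 968, 1133 and 1124 against 564, 625, 543 and 562, 2.08-fold higher (adjusted p = 0.00622). For all these genes mouse 1 was the highest of its group. Btg2, Gtse1, Plk2, Zmat3, Trp53inp1 and Sesn2 also rose, while Tigar, Mdm4, Sertad1, Plk3 and Sesn1 did not pass, with log2 differences of -0.03, 0.10, -0.12, 0.12 and -0.38.

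Phlda3, an inhibitor of AKT signalling, stood at 4371, 1756, 1820 and 1744 in Ncoa5+/- mice against 48.6, 45.2, 54.5 and 33.8 in Tip30+/- mice. At 48.5-fold (log2 5.60 ± 0.47, adjusted p = 2.06e-05, limma) it had the largest fitted difference of any gene higher in Ncoa5+/-. Eda2r, a receptor of the tumour necrosis factor family, stood at 196, 166, 187 and 243 against 4.26, 2.01, 6.81 and 6.14, a 36.2-fold difference (adjusted p = 9.44e-06). Tnfrsf10b, the mouse TRAIL death receptor, stood at 242, 156, 120 and 208 against 3.41, 10.04, 7.78 and 6.14, a 23.7-fold difference (adjusted p = 1.81e-05). No mouse of either group approached the other for these 3 genes, and all 3 calls remained without the Zhx2-low livers (adjusted p = 0.00152, 0.00188 and 0.00152). Bax, which permeabilizes the outer mitochondrial membrane, was 2.22-fold higher (adjusted p = 0.000928), and Aen, an apoptosis nuclease, 3.00-fold (adjusted p = 8.24e-05). Perp, a p53 target of cell junctions, was the 1 member that fell, by 0.62 on the log2 scale (adjusted p = 0.0222). Pmaip1 and Bbc3, which encode the death inducers Noxa and Puma, stood at log2 differences of -0.01 and 0.24 (adjusted p = 0.993 and 0.898).

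The other genes among the 12 largest rises are not on those lists, apart from Psrc1, a member of the arrest list. Gria3, a glutamate receptor subunit, stood at 524, 319, 390 and 424 against 22.2, 13.1, 7.78 and 10.2, a 30.5-fold difference (adjusted p = 9.44e-06, limma). Ddit4l, an inhibitor of mTOR signalling, stood at 385, 143, 120 and 126 against 9.38, 7.03, 14.6 and 7.17, a 16.8-fold difference (adjusted p = 4.45e-05). Mouse 1 was the highest in both, and groups stayed far apart. Lif, an interleukin-6 family cytokine, had 220 reads in the 4 Ncoa5+/- libraries and 1 in the 4 Tip30+/- libraries, a ratio of 238 after scaling with an exact 95% interval of 42.3 to 9444 that covers counting error only. Psrc1, a spindle protein, had 238 and 11 reads, a ratio of 23.4 (interval 12.8 to 47.5). Fam212b and Ddias, an inhibitor of apoptosis, were 13.9-fold and 10.8-fold higher (adjusted p = 0.000487 and 0.000341). The histone gene Hist1h1d was 12.7-fold higher (adjusted p = 0.0126), but the libraries were made by oligo(dT) selection, and most histone messages lack a poly(A) tail. Ly6d, a surface protein, stood at 1070, 370, 72.9 and 494 against 26.4, 11.05, 51.5 and 14.3, 15.3-fold higher (adjusted p = 0.045), and lost its call when any 1 of 7 libraries was left out (highest adjusted p = 0.128, without Tip30+/- 2). Psrc1 lost its call without 3 of the 8 libraries (highest adjusted p = 0.0557, without Ncoa5+/- 4). Of the 12 largest rises 9 remained called without the Zhx2-low livers, the exceptions being Ly6d, Psrc1 and Hist1h1d.

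**Figure D3:**
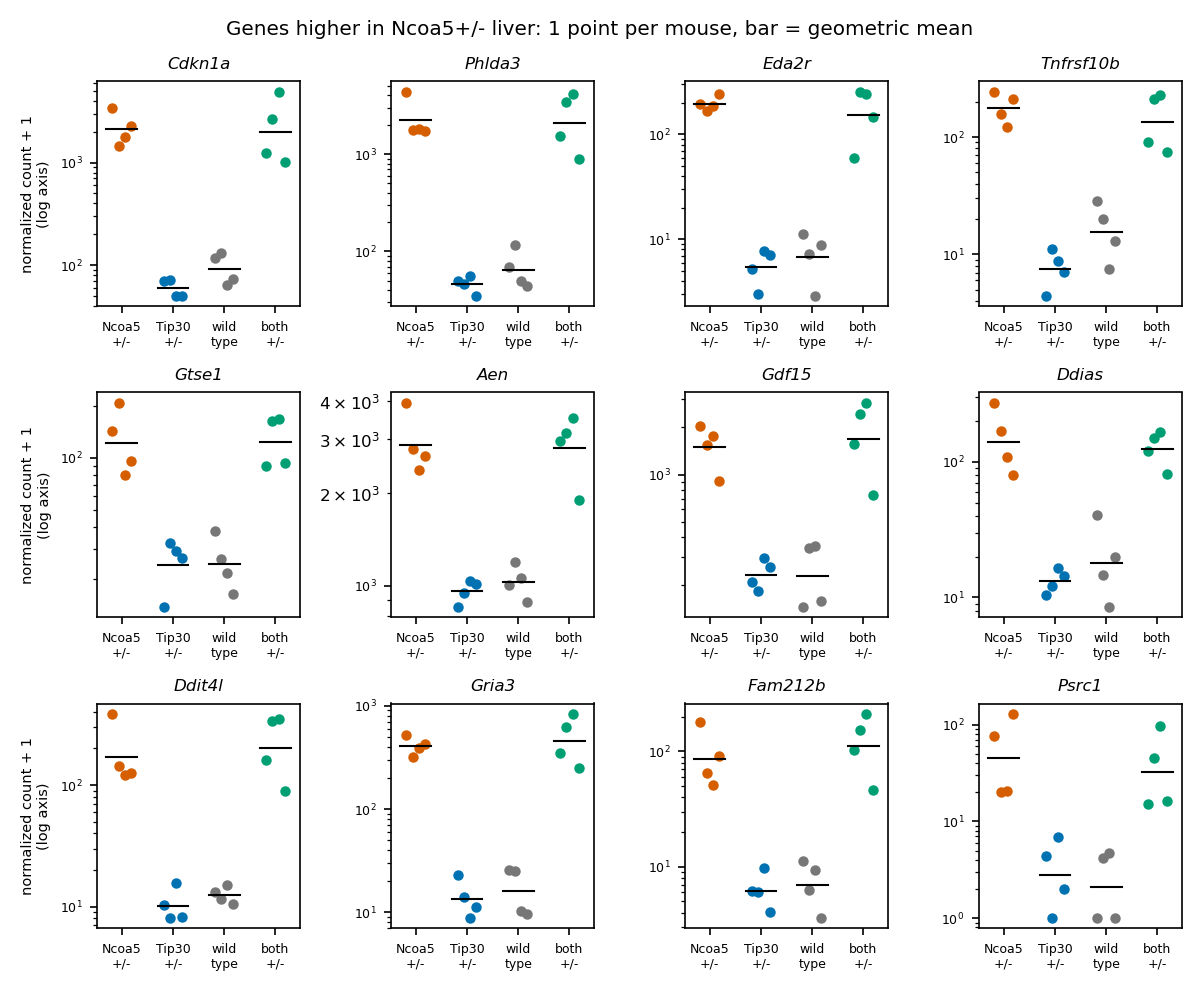
Normalized count + 1 (log axis) in each of 16 livers for 12 of the genes higher in Ncoa5+/- than in Tip30+/- liver, 1 point per mouse, with the geometric mean of each genotype as a bar. For Cdkn1a, Phlda3, Eda2r and Tnfrsf10b all 4 Ncoa5+/- livers lie above all 4 Tip30+/- and all 4 wild-type livers. The double heterozygotes (both +/-) also lie above the Tip30+/- and wild-type livers, and some of them lie below the lowest Ncoa5+/- liver.

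Of 24 genes of DNA damage sensing and repair 23 were tested, with a median log2 difference of 0.14. Over all genes 1.51% were higher and 0.686% lower, and of these 23 genes 3 were higher and 0 lower. They were Ddias, the bypass polymerase gene Polk (2.50-fold, adjusted p = 0.00105, limma) and the alkyl transferase gene Mgmt (1.96-fold, adjusted p = 0.0066). Without the Zhx2-low livers 1 of the 3, Ddias, was called, and the adjusted p was 0.0621 for Polk and 0.0654 for Mgmt. Of 28 cell cycle genes 25 were tested, and 2 were higher and 0 lower. The other 23 had log2 differences above 0 without passing, the list's median was 0.90, and its summed level was 8876 to 15624 in Ncoa5+/- and 3922 to 5693 in Tip30+/- livers. In wild-type livers the sum was 4749 to 9469, overlapping both groups. Ccnd1, which encodes cyclin D1, stood at 5495, 4722, 5053 and 5246 against 719, 1621, 832 and 1533, 4.63-fold higher (adjusted p = 0.00404). Top2a, a marker of dividing cells, stood at 84.5, 137, 40.6 and 75.0 against 15.3, 29.1, 37.9 and 22.5 (3.02-fold, adjusted p = 0.0455). Ccnd1 was even among the Ncoa5+/- mice, and Top2a in mouse 3 was close to the highest Tip30+/- liver. Wild-type livers ranged from 25.8 to 85.9 for Top2a, overlapping both groups. For Ccnd1 they ranged from 1346 to 1911, below every Ncoa5+/- liver. Neither was called without the Zhx2-low livers (adjusted p = 0.153 and 0.262), and Top2a was not called without Tip30+/- 1 (adjusted p = 0.136). The log2 differences without the Zhx2-low livers were 2.14 for Ccnd1 and 1.55 for Top2a, against 2.21 and 1.59 with all livers.

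Genes of the type I interferon response were higher in Ncoa5+/- liver, with 11 of 30 tested genes called higher and 0 lower. Their median log2 difference was 1.02, and 1.51% of all genes were called higher. The groups did not overlap for 22 of the 30, against 6.09% of all genes in that direction, and all 30 had a log2 difference above 0 under each of 3 scalings. Of 17 interferon-gamma inducible GTPases and their regulators 6 were called higher and 0 lower (median 0.92), and of 20 antigen presentation genes 7 and 0 (median 0.57). Without the Zhx2-low livers 0 genes of these 3 lists were called, with medians of 0.86, 0.65 and 0.47. That fit called 0.204% of all genes higher. Without Ncoa5+/- 4 alone 1, 0 and 2 were called, and 113 of all 15164 genes were higher.

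Promoters of the first 2 of these lists often hold the core of the interferon-stimulated response element, GAAA followed by any 2 bases and GAAA again, searched on both strands with overlapping copies merged. It was in 415 of 10619 promoters (3.91%), in 21 of 160 genes higher in Ncoa5+/- (13.1%) and in 4 of 79 lower (5.06%). It was in 12 of 20 type I interferon genes, 9 of 10 interferon-gamma inducible GTPases and 2 of 16 antigen presentation genes with a promoter in RefSeq (GRCm38.p6). The matches, in capitals, are shown for 3 called antiviral genes, Isg15 (chr4:156200845-156200936, minus strand), Ifit1 (chr19:34640745-34640843, plus strand) and Oas1a (chr5:120907526-120907585, minus strand).
Isg15: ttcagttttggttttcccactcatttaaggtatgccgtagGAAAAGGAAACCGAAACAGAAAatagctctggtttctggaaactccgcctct
Ifit1: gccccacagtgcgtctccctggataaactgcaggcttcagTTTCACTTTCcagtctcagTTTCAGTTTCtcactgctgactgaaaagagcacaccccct
Oas1a: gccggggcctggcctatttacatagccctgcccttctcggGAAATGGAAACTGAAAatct

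Usp18, which removes the ubiquitin-like protein ISG15, stood at 439, 429, 210 and 567 normalized counts against 85.3, 137, 93.3 and 124 (3.57-fold, adjusted p = 0.0126, limma). Zbp1, a sensor of Z-form nucleic acids, stood at 634, 618, 386 and 772 against 194, 253, 143 and 230 (2.90-fold, adjusted p = 0.0268). Ifit1, which binds viral RNA, stood at 683, 545, 284 and 630 against 124, 271, 179 and 180 (2.79-fold, adjusted p = 0.0473). In all 3 genes Ncoa5+/- mouse 3 was the lowest of its group and still above every Tip30+/- liver. Wild-type mice 1 to 4 stood at 339, 305, 136 and 126 for Usp18 and at 406, 428, 159 and 210 for Zbp1. For Ifit1 they stood at 499, 429, 227 and 241. Wild-type mice 1 and 2 thus lay above Ncoa5+/- mouse 3 in all 3 genes. Isg15 was 2.55-fold higher (adjusted p = 0.0184) and Irf7, a transcription factor of this response, 2.43-fold (adjusted p = 0.0119). Oas1a and Oas1g, close copies whose reads may be shared, were 2.69-fold and 2.79-fold higher (adjusted p = 0.0229 and 0.0216). Among the GTPases Gbp6 was 2.62-fold higher (adjusted p = 0.0444) and stood at 1457 in mouse 4 against 416 to 635 in the other Ncoa5+/- mice. Gbp8, Gbp7, Igtp, Tgtp1 and Tgtp2 were also called, the last pair being near-identical copies. Without Ncoa5+/- 4 the adjusted p was 0.0512 for Usp18, 0.0949 for Zbp1 and 0.138 for Ifit1, and without Tip30+/- 3 it was 0.125 for Gbp6.

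In antigen presentation Tap1, a subunit of the peptide transporter of the endoplasmic reticulum, stood at 1460, 1362, 1247 and 1517 against 715, 699, 532 and 781 (2.06-fold, adjusted p = 0.000586, limma). Nlrc5, the class I transactivator, was 1.503-fold higher (adjusted p = 0.0269), and the classical class I gene H2-K1 1.45-fold (adjusted p = 0.0373). Nlrc5 was not called without Ncoa5+/- 4 (adjusted p = 0.0943). H2-D1, H2-Q4, H2-Q6 and H2-Q7 were also called, and reads of these paralogs may be shared. The class II genes H2-Aa, H2-Ab1, H2-Eb1 and Cd74 had log2 differences of 0.63, 0.61, 0.58 and 0.56 and did not pass (adjusted p = 0.226 to 0.361).

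Some markers of cytotoxic lymphocytes were also higher in Ncoa5+/- liver. Of 22 T and NK cell markers 19 were tested, 5 were higher in Ncoa5+/- liver and 0 lower (median log2 1.12). Over all genes 1.51% were higher. The summed level of these markers was 562 to 864 in Ncoa5+/- and 264 to 422 in Tip30+/- livers. Cd8a, a chain of the cytotoxic T cell coreceptor, stood at 24.8, 84.5, 60.4 and 67.2 against 2.56, 7.03, 6.81 and 3.07 (10.04-fold, adjusted p = 0.00309, limma). Nkg7, a cytotoxic granule gene, stood at 22.5, 44.8, 33.3 and 39.9 against 6.82, 8.04, 9.72 and 6.14 (4.09-fold, adjusted p = 0.00123). Both kept their call without the Zhx2-low livers, and in both Ncoa5+/- mouse 1 was the lowest of its group. Cd8b1, Lck and Ccl5 were the other 3, and none of them was called without those livers (adjusted p = 0.0683, 0.0871 and 0.147), which left 2 of the 5. The pan-T genes Cd3d, Cd3e and Cd3g had log2 differences of 0.85, 1.34 and 0.75 without passing. In bulk liver more cells of a type and more RNA per cell cannot be told apart. The chemokine genes Cxcl10 (3.55-fold, adjusted p = 0.00786) and Cxcl9 (2.51-fold, adjusted p = 0.0182), whose products attract such cells, were higher as well. Their list had 3 of 17 tested chemokine genes called higher and 0 lower (median log2 0.62), against 1.51% higher over all genes. Its summed level overlapped, at 11532 to 12580 in Ncoa5+/- and 10731 to 12829 in Tip30+/- livers. Without the Zhx2-low livers the adjusted p was 0.0396 for Cxcl10 and 0.0814 for Cxcl9. Without Ncoa5+/- 4 the adjusted p was 0.129 for Ccl5 and 0.0622 for Cxcl9.

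Other cell types gave few or no calls, where 2.20% of all genes were called. Of 20 Kupffer cell and macrophage markers tested, 0 were called, 20 had a log2 difference above 0 (median 0.49), and their sum was 15761 to 27452 in Ncoa5+/- and 13201 to 16717 in Tip30+/- livers. Of 10 B cell markers (median 0.05), 16 sinusoidal endothelial markers (median 0.07), 11 bile duct and progenitor markers (median 0.27) and 5 neutrophil markers (median 1.20), 0 were called. Of 17 stellate cell and matrix genes tested, the collagen gene Col1a1 was called, 2.22-fold higher (adjusted p = 0.04997, limma), and lost the call without Ncoa5+/- 4 (adjusted p = 0.135) and without the Zhx2-low livers (adjusted p = 0.0713). The part of these cell types in the p53 and interferon results was not tested.

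**Figure D4:**
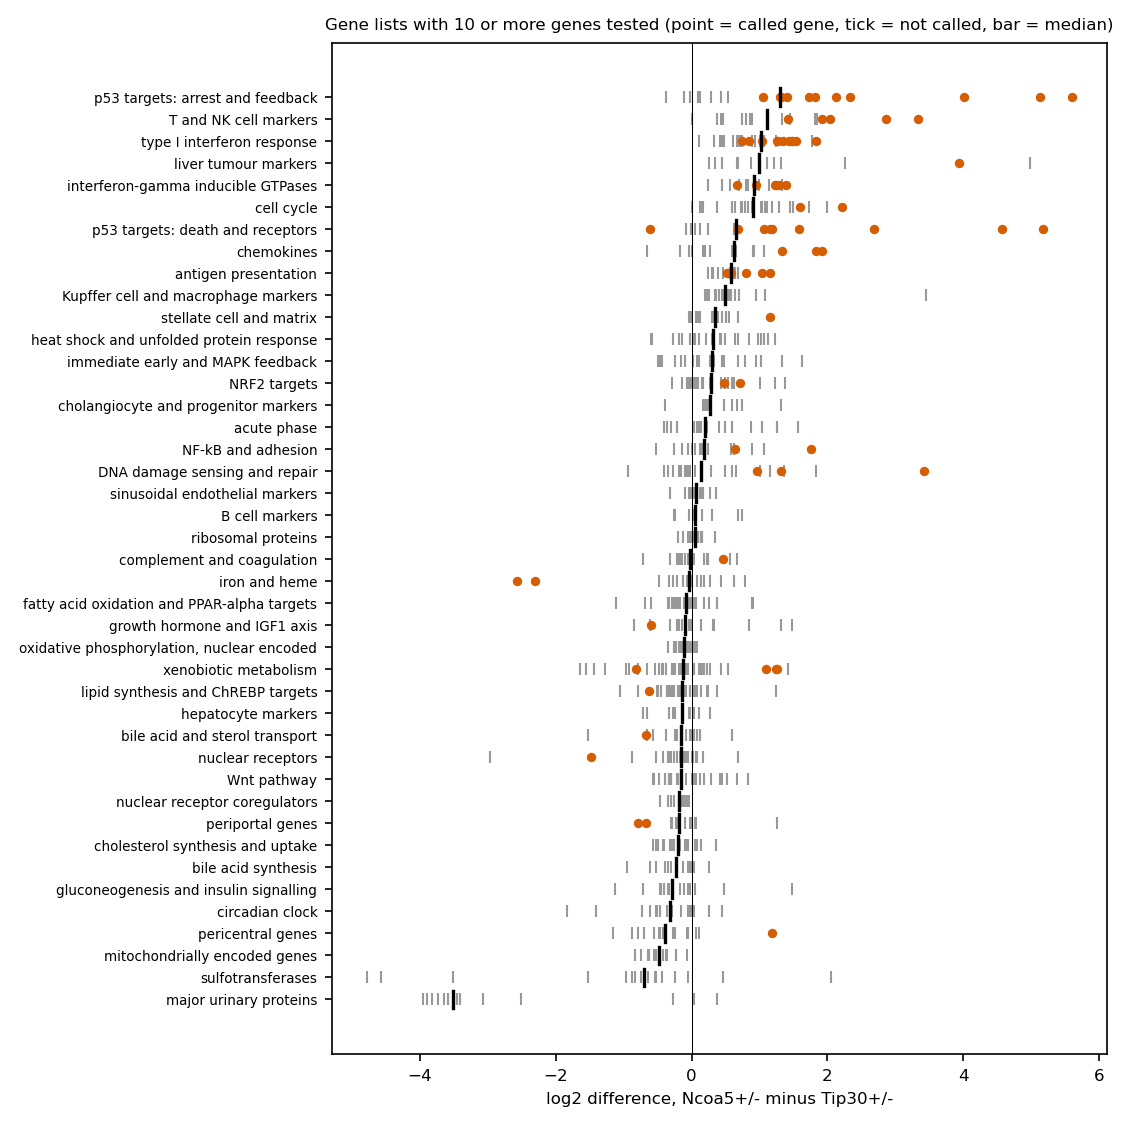
Log2 difference between Ncoa5+/- and Tip30+/- liver (x axis) for every tested gene of each list with 10 or more genes tested; orange points passed an adjusted p below 0.05, grey ticks did not, and the black bar is the list's median. The lists are ordered by median, from p53 targets of arrest (1.30) at the top to major urinary proteins (-3.52) at the bottom, where 0 genes were called.

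Detoxification genes gave few calls, in both directions. Of 40 xenobiotic metabolism genes 3 were higher in Ncoa5+/- liver and 1 lower (median log2 -0.13). Over all genes 1.51% were higher and 0.686% lower. Ephx1, the microsomal epoxide hydrolase gene, stood at 31160, 16706, 26554 and 22875 against 12214, 11776, 10468 and 9990 (2.14-fold, adjusted p = 0.00523, limma). The glutathione transferase genes Gstp1 and Gstp2, close copies, were 2.40-fold and 2.36-fold higher (adjusted p = 0.0169 and 0.00678). Cyp2d22, a cytochrome P450 gene, fell by 0.82 on the log2 scale (adjusted p = 0.0152). Of 25 NRF2 pathway genes tested, 2 were higher: Nfe2l2, which encodes NRF2 itself (1.40-fold, adjusted p = 0.0249), and Srxn1, a sulfiredoxin gene (1.64-fold, adjusted p = 0.0102). None of these 6 genes was called without the Zhx2-low livers (adjusted p = 0.098 to 0.33). Single libraries also ended the call of Nfe2l2 (adjusted p = 0.0917 without Tip30+/- 2), Gstp1 (0.0592 without Tip30+/- 1) and Cyp2d22 (0.0647 without Ncoa5+/- 1).

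Genes lower in Ncoa5+/- than in Tip30+/- liver were fewer and came from no single list. Wfdc2, a secreted protein with a protease inhibitor fold, stood at 13.5, 56.0, 30.2 and 20.45 in Ncoa5+/- mice and at 240, 194, 271 and 126 in Tip30+/- mice, 7.36-fold higher in Tip30+/- (adjusted p = 0.0021, limma). Slc13a2, a citrate and dicarboxylate transporter, stood at 11.3, 16.3, 8.33 and 13.6 against 57.1, 33.1, 135 and 95.2 (5.47-fold, adjusted p = 0.0102). Wild-type livers ranged from 49.1 to 128 for Wfdc2, overlapping both groups, and from 38.7 to 101 for Slc13a2, within the Tip30+/- range. Gna14, a G protein subunit, stood at 27.0, 41.8, 42.7 and 41.9 against 140, 128, 107 and 109 (3.13-fold, adjusted p = 0.000951), and its call remained without the Zhx2-low livers (adjusted p = 0.0388). Esrrg, an orphan nuclear receptor, stood at 50.7, 54.0, 77.0 and 63.3 against 115, 213, 192 and 179 (2.79-fold, adjusted p = 0.00671). It was the 1 nuclear receptor called among 28 tested, where 2.20% of all genes were called.

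Iron genes gave 2 falls among 19 tested, with a list median of -0.04, where 0.686% of all genes were called lower. Hamp2, a copy of the hepcidin gene, stood at 90.1, 50.9, 103 and 157 against 681, 303, 674 and 686 (5.93-fold, adjusted p = 0.0117, limma). Hamp, the hepcidin gene itself, stood at 25535 ± 5515 in Ncoa5+/- and 31129 ± 7743 in Tip30+/- livers (SD, n = 4 each) and did not pass (adjusted p = 0.746), and reads could be shared between the copies. Steap2, a metalloreductase, stood at 20.3, 19.3, 39.6 and 24.3 against 147, 164, 134 and 79.9 (4.94-fold, adjusted p = 0.00288). Groups did not overlap for Hamp2 or Steap2. Without the Zhx2-low livers the adjusted p was 0.135 for Hamp2 and 0.0814 for Steap2. The log2 differences there were -2.92 and -2.15, against -2.57 and -2.31 with all livers.

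Gpt2, a mitochondrial alanine transaminase, stood at 2958, 6440, 3903 and 2278 against 9031, 8840, 10632 and 9282 (2.61-fold, adjusted p = 0.0173, limma), with the Zhx2-low mice 1 and 4 lowest. Hnf4aos, an RNA antisense to the hepatocyte factor gene Hnf4a, was 2.61-fold higher in Tip30+/- (adjusted p = 0.00383), while Hnf4a differed by -0.33 on the log2 scale (adjusted p = 0.337). No strand marking is stated for these libraries, so reads of such partners cannot be told apart. Klf1, an erythroid transcription factor, was 2.62-fold higher in Tip30+/- (adjusted p = 0.00431), and of 5 erythroid markers tested 0 were called. Synm, an intermediate filament gene, and Adcyap1r1, a receptor for the peptide PACAP, were 2.52-fold and 2.49-fold higher in Tip30+/- (adjusted p = 0.0183 and 0.0264). Gpt2, Synm and Adcyap1r1 each lost the call without some single library, with highest adjusted p of 0.0677 (without Ncoa5+/- 1), 0.072 and 0.0999 (both without Tip30+/- 1). Gna14 and Hnf4aos remained called without the Zhx2-low livers (adjusted p = 0.0388 and 0.0145), while Wfdc2, Slc13a2, Esrrg, Klf1, Gpt2, Synm and Adcyap1r1 did not (adjusted p = 0.0654 to 0.192).

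**Figure D5:**
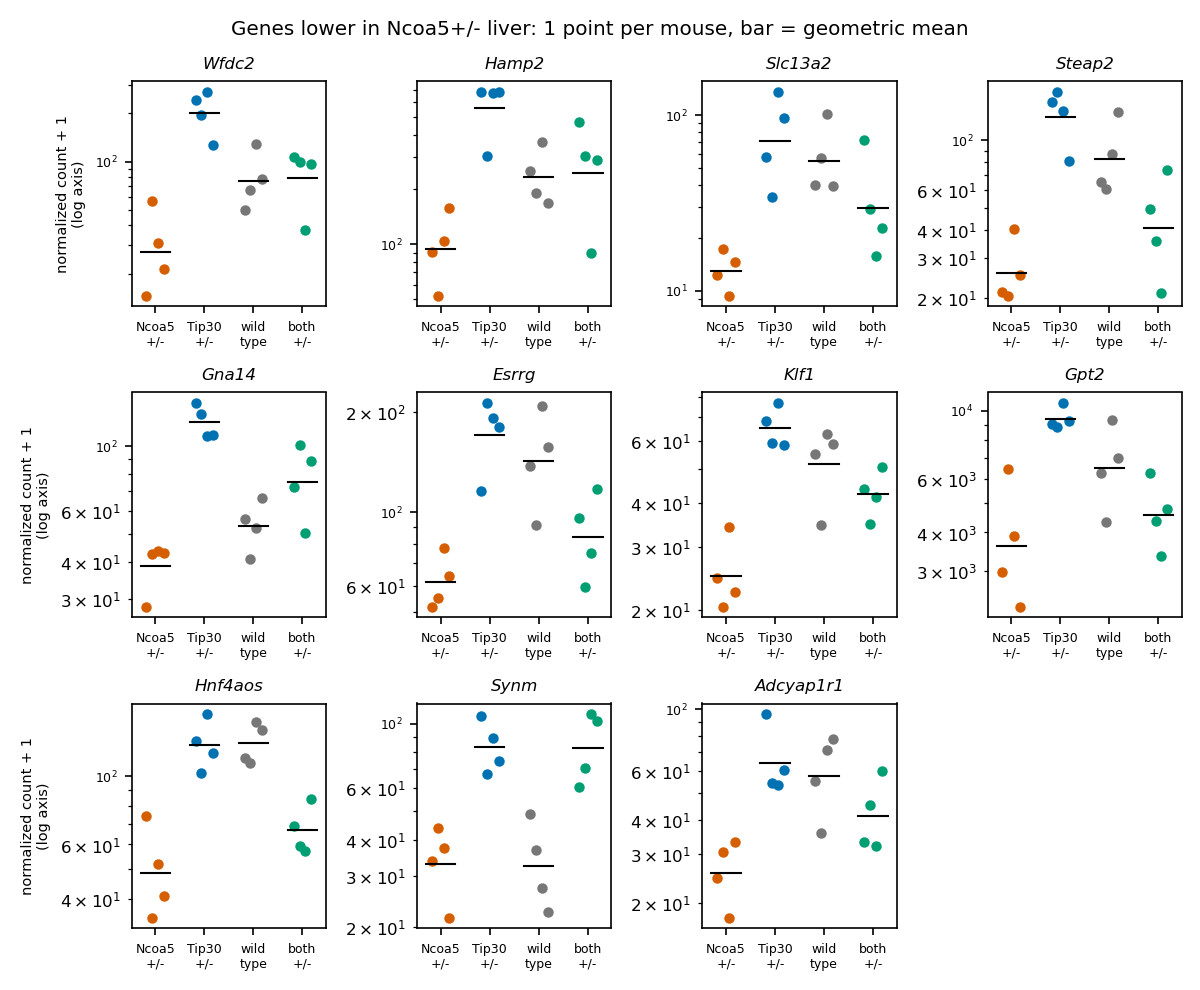
Normalized count + 1 (log axis) in each of 16 livers for 11 of the genes lower in Ncoa5+/- than in Tip30+/- liver, 1 point per mouse, with the geometric mean of each genotype as a bar. All 4 Tip30+/- livers lie above all 4 Ncoa5+/- livers in each panel, and for Wfdc2 and Slc13a2 the wild-type mean lies between them.

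Hepatocyte metabolism and hormone lists gave few calls, 5 lower in Ncoa5+/- and 1 higher among the lists given here. Over all genes 0.686% were lower and 1.51% higher. Slc10a1, the bile acid uptake transporter, stood at 11538, 10487, 13020 and 9224 against 18822, 17092, 16663 and 17295 (1.59-fold, adjusted p = 0.0118, limma), 1 of 16 transport genes tested. Dgat2, which makes triglyceride, was 1.55-fold higher in Tip30+/- (adjusted p = 0.0116), 1 of 30 lipid synthesis genes. Ghr, the growth hormone receptor, was 1.51-fold higher in Tip30+/- (adjusted p = 0.045), 1 of 18 genes of its axis, and lost the call when any 1 of 7 libraries was left out (highest adjusted p = 0.12, without Ncoa5+/- 2). The periportal genes Sds and Ctsc were 1.73-fold and 1.59-fold higher in Tip30+/- (adjusted p = 0.00948 and 0.0173), 2 of 16 tested, while of 17 pericentral genes the amino acid transporter gene Slc1a4 was called, 2.28-fold higher in Ncoa5+/- (adjusted p = 0.0161). None of these 6 genes was called without the Zhx2-low livers (adjusted p = 0.0654 to 0.282), and the calls of Slc1a4 and Ctsc were lost without Ncoa5+/- 4 and Tip30+/- 1 (adjusted p = 0.0591 and 0.0702).

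Lists with 0 calls included 14 major urinary protein genes (median log2 -3.52), 16 sulfotransferases (median -0.70) and 15 mitochondrially encoded genes (median -0.49, all 15 below 0 under each scaling). Mup7 stood at 36.0, 335, 938 and 35.1 in Ncoa5+/- mice and at 507 to 6224 in Tip30+/- mice, lowest in the Zhx2-low livers, and these paralogs share reads. The 15 nuclear receptor coregulators, the class to which Ncoa5 belongs, gave 0 calls and a median of -0.18, all 15 below 0 as deposited and 13 under upper-quartile scaling.

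Hcn3, the ion channel gene named in the study's title, stood at 674, 1117, 890 and 498 in Ncoa5+/- mice and at 1155, 1121, 1224 and 1047 in Tip30+/- mice. These groups overlapped, and the log2 difference was -0.58 ± 0.23 (adjusted p = 0.206, limma; exact two-sided permutation p = 0.0571). Pklr, the pyruvate kinase gene, which overlaps the end of Hcn3 on the opposite strand (chr3:89136142-89146784 against chr3:89146074-89160196), stood at 6642, 9035, 8404 and 4605 against 12169, 9648, 13021 and 13268. Groups did not overlap for Pklr, whose adjusted p was 0.0501 (log2 -0.78 ± 0.20), and in both genes Ncoa5+/- mouse 4 was the lowest. Reads from the stretch that both genes cover cannot be told apart without strand.

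Called genes were unevenly spread over chromosomes. On chromosome 7, which carries Htatip2, 47 of 1159 tested genes (4.06%) were called, against 1.10% to 2.94% on the other 19 chromosomes. Within 10 Mb of Htatip2 the share was 4.96% (7 of 141) and elsewhere on chromosome 7 3.83% (39 of 1017). Around Ncoa5 on chromosome 2 it was 3.41% (6 of 176) and elsewhere on chromosome 2 1.71% (17 of 996). The 7 genes near Htatip2 included Bax and Nkg7. The 6 near Ncoa5 were Wfdc2 (chr2:164562413-164568510), Hnf4aos, Zbp1, Ahcy, Edem2 and Ocstamp. Whether position beside a deleted gene plays a part in these calls was not tested.

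A small group of ferritin light chain copies, picked after their values were seen, was high in Tip30+/- mice 1 to 3 only among the single heterozygotes. Ftl1-ps2, a processed copy on chromosome 10, stood at 1844, 1208, 1344 and 134 in Tip30+/- mice 1 to 4 and at 102 to 157 in Ncoa5+/- mice. Gm12164 on chromosome 11 and Gm6394 on chromosome 3 had the same pattern, with Gm6394 at 172, 153, 177 and 10.2 against 5.09 to 9.74. Tip30+/- mouse 4 thus lay near or within the Ncoa5+/- range in these genes, and all 4 double heterozygotes were high for Ftl1-ps2, at 1455 to 1793, with wild type at 84.3 to 138. The parent gene Ftl1, on chromosome 7 and 4.31 Mb from Htatip2, did not pass (log2 0.44 ± 0.14, adjusted p = 0.122, limma). Reads of such near-identical copies are assigned uncertainly. Gm1966, also outside the naming rule, had 0 reads in all Ncoa5+/- libraries and 94 in Tip30+/-, at least 29.0-fold lower against a floor of 3 reads over the group.

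The wild-type mean lay between the 2 single heterozygotes for 197 of the 229 higher and 96 of the 104 lower genes, against 44.3% of all genes. The choice of called genes favours a middle place for the third group, so these counts are a description. Among the 197 higher genes it was nearer Tip30+/- for 142, and among the 96 lower genes nearer Tip30+/- for 61. Of all 6722 tested genes with the wild-type mean between, it was nearer Tip30+/- for 3476.

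The 8 mice outside the contrast gave separate differences for the same genes, but not an independent test of the calls. Their spread within each genotype was part of the pooled spread by which the genes were called. A fit of the 2 groups alone called 423 genes, of which 272 were also called in the main fit. The counts below use the genes called in the main fit. Double heterozygotes against wild type had 87 genes higher (0.574% of all tested) and 19 lower (0.125%) in limma. Of the 229 genes higher in Ncoa5+/-, 47 were higher in the double heterozygotes and 1, Htatip2, was lower. Of the 104 lower genes 0 were lower (1 without double heterozygote 4) and 4 were higher, the 3 ferritin copies and Gm15545. The 12 largest rises held 10 of the calls, and Cdkn1a stood at 1233, 2666, 4893 and 1006 in double heterozygotes against 62.7 to 130 in wild type. The 12 largest falls held 0. Of the p53 arrest list 9 genes were called higher in the double heterozygotes (list median log2 1.04). Of the type I interferon list 0 were called (list median 0.34), with log2 differences of 0.86 for Oas1g, 0.34 for Zbp1, 0.09 for Usp18 and -0.03 for Ifit1. The interferon-gamma inducible GTPases also had 0 calls (list median 0.33). Antigen presentation had 1 gene called higher, H2-Q7 (list median 0.57). The T and NK cell markers had 1, Cd8a (list median 0.92). The count of 47 was 24 without double heterozygote 2, 30 without wild type 4 and 32 without the Zhx2-low wild-type mice 1 and 2.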

How the data were processed

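Liver mRNA of 16 mice was analysed. The deposited values are a signal, normalized counts made by the authors (each gene's reads over the library's size factor, per the labels). Per the submitters' processing notes the tools were Trimmomatic 0.36, STAR 2.6.0c and DESeq2 1.28.1, with GRCm38. Sources used here name no counting program, annotation or strain. Values were whole multiples of 1 step per library (100% at a tolerance of 1e-04), which gave whole reads, and for Tip30+/- 2 the step lay near 1. Replicate numbers follow accession order.

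The test was limma 3.58.1 (trend, robust; R 4.3.3) on log2(value + 1), a pseudocount of 1, so folds of low genes are understated. One model of 4 group means covered 16 libraries, two-sided, with Benjamini-Hochberg adjustment over 15164 genes, and adjusted p values without a tool named are from it. Alternatives used edgeR 4.0.16 and DESeq2 1.42.0 on the recovered reads, other filters, pseudocounts and scalings, a mouse tag covariate, and libraries left out. The mouse tag is the mouse's number in the sample titles, coded as below 4300 or not. In the contrast Ncoa5+/- 1 and 2 and Tip30+/- 1 to 3 fell below it, so tag and genotype are partly aligned. The fit that left out Ncoa5+/- 2 and 3 and wild type 3 and 4 was chosen after seeing the data. The chain was tested on simulated data.

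Members, the 47 gene lists and the naming rule were chosen with earlier results of these data known. The rule names the 12 largest rises and falls with an adjusted p below 0.05, no overlap of the groups and a higher group averaging 50 or more, without predicted genes, 6 fixed genes, and from each list up to 4 members that passed or else 2 as values. Other members are named as examples, and 1 gene the rule picks is not reported here. Positions are from GENCODE M21.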

Additional observations from a re-analysis of the deposited data

Results flagged for a closer look

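In groups of 4 mice, a value was singled out where its gap to the nearest other mouse took up more of the group's range than a Dixon limit allows. Chance picks about 1 in 20 groups, and 12 of 238 groups were picked. Among genes higher in Ncoa5+/- liver these were Phlda3 at 4371 and Ddit4l at 385 in Ncoa5+/- 1, Cxcl10 at 210 in Ncoa5+/- 4, Traf1 at 13.6 in Tip30+/- 3, and Lif at 1.02 in Tip30+/- 4, where the other 3 mice were at 0. Among genes lower in Ncoa5+/- they were Gna14 at 27.0 in Ncoa5+/- 1, Hamp2 at 303 in Tip30+/- 2 and Adcyap1r1 at 95.5 in Tip30+/- 1. Among genes that did not pass they were Hba-a1 at 13462 and Spp1 at 841 in Ncoa5+/- 3, and Nr4a1 at 296 and Stard4 at 2477 in Ncoa5+/- 4.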

How the results depend on the processing

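The count of 333 called genes was 539 with array weights, 814 with DESeq2, 762 with a mouse tag covariate, 34 without the 4 livers low in Zhx2, 779 without the 4 other Ncoa5+/- and wild-type livers, and 151 to 490 with each replicate left out; the cause was not tested. Under the other settings it was 255 to 423, with 347 in edgeR. Of 1574 alternative fits of the 66 called genes named by the rule, 1345 kept the call, 229 lost it and 0 reversed, and 16 genes kept it in all. Groups that did not overlap numbered 1808, then 2238 to 3181 with each replicate left out, 3309 without the livers low in Zhx2 and 4482 without the others, with fewer mice to overlap. Calls shared with mice outside the contrast, 47 in all, ranged from 24 to 51 with each replicate left out. Reversed signs were in genes not called: Alas2, 0.0116 without the livers low in Zhx2, and Hcn2, -0.0561 with the tag covariate, -0.287 without the others and -0.142 to 0.212 with replicates left out. No paired analysis was possible because replicate numbers only follow accession order. Depth limits genes near the filter of 10.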
